A study of Homo sapiens with 4 samples.

Results

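Monomethylation of lysine 20 on histone H4 (H4K20me1) was examined at 9 circadian clock genes, NR1D1, NR1D2, RORA, CLOCK, CRY1, CRY2, PER1, PER2 and PER3. Every peak that the authors' annotation assigned to one of these symbols was taken, which gave 17 of 25514 peaks, of which 1 was distal intergenic and is kept apart. NR1D1 had been picked because its promoter peak was among those with the lowest fold change, so its values describe that choice and nothing is inferred from them.

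The mammalian circadian clock is a loop of transcription factors that inhibit their own production. CLOCK and its partner BMAL1 switch on the PER and CRY genes through E-boxes, and the PER and CRY proteins return to the nucleus and block CLOCK. The nuclear receptors NR1D1 and NR1D2 (REV-ERBα and REV-ERBβ) repress BMAL1, and RORA activates it through the same DNA element. In blood cells the clock is known for daily changes in leukocyte traffic and in inflammatory genes. H4K20me1 is laid down by a single enzyme, SETD8 (also KMT5A), and is known for its cell cycle dependence and for covering the bodies of many genes.

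The mark was mapped by CUT&Tag, in which an antibody tethers Tn5 transposase to the modified nucleosomes, in Kasumi-1 cells, a line from acute myeloid leukemia with the RUNX1-RUNX1T1 fusion gene. There were 2 libraries of wild-type genotype with the guide named sgNT and 2 of SETD8 knockout genotype, made with CRISPR/Cas9 and the guide named sgSETD8. Each library used 100000 cells. The labels do not say whether the knockout cells were a pool or a clone, or whether the libraries within a group are separate cultures. The table holds no expression values, so neither the loss of SETD8 nor the identity of the line could be checked. It held 1 value per group and peak, called here the first-listed and the second-listed group. Its name sets treated against control, and if the columns keep that order the first-listed group is the knockout, but no header states it. A uniform loss of the mark would not show in these scaled values. Differences are given on the log2 scale as the first-listed value less the second-listed, without a replicate check. They carry exact Clopper-Pearson 95% intervals from recovered reads, which cover counting error only.

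In all, 8 of the 9 genes had a peak, and PER3 had none. Protein-coding genes whose RefSeq span touched a peak made up 41.1% of 20037, and 7 of the 9 clock genes did so. The member peaks without the distal one were 355 to 2676 bp wide (median 1036) and held 33 to 357 reads per group, with a median of 95 in each, against 72 over all peaks. At or above the median signal of all peaks were 11 of these 16.

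The NR1D1 and CRY1 starts lay inside a peak, while those of PER1 and PER3 did not. The 250 bases before these 4 starts are shown as the DNA that the promoter peaks cover or miss (RefSeq, GRCh38.p14, 5′ to 3′ in the direction of the gene). Capitals mark exact matches, on either strand, to the E-box CACGTG, the ROR and REV-ERB core element AGGTCA, the D-box TTATGTAA or the cyclic AMP element TGACGTCA, none of which overlap each other here.
NR1D1, chr17:40100590-40100839, reverse strand: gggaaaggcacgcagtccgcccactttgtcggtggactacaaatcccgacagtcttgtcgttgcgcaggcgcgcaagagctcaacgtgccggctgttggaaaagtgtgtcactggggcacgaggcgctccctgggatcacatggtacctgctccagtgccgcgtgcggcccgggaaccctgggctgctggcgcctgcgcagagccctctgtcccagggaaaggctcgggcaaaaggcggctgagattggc
CRY1, chr12:107093550-107093799, reverse strand: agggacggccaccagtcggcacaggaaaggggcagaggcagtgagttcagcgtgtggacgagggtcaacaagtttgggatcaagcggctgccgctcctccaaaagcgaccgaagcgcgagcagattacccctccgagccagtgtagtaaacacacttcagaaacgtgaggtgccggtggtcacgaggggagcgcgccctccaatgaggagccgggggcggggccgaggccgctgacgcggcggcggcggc
PER1, chr17:8152405-8152654, reverse strand: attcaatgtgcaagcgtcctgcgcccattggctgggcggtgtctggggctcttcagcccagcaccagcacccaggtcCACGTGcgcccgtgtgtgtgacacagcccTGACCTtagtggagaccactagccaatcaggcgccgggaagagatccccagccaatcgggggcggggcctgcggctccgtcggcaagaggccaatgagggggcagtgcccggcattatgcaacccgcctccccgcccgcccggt
PER3, chr1:7784041-7784290, forward strand: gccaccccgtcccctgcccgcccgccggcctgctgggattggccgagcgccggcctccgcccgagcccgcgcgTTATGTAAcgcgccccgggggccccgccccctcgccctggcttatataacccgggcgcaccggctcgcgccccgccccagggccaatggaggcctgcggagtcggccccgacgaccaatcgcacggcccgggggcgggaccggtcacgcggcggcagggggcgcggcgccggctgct
The NR1D1 peak covered 216 of its 250 bases and the CRY1 peak all 250. Neither window held a match to the 4 motifs, which says only that these letters are absent from these bases. The PER1 window held 1 E-box and 1 AGGTCA, and the PER3 window held 1 D-box. Windows not printed break this pattern. The window before the downstream CRY2 start, with all 250 bases in a peak, held 1 AGGTCA. The windows of CLOCK, PER2 and RORA lay outside peaks and held no match. Over all 35116 RefSeq windows of this length, 6.34% held the E-box, 12.1% AGGTCA, 0.834% the D-box and 1.65% the cyclic AMP element.

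NR1D2 had 2 RefSeq starts, and its promoter peak covered the downstream one. The window before that start held the only pair of E-boxes among the clock gene windows, and a D-box. They are shown as 30-base stretches because the window lies inside the RefSeq span of the gene.
NR1D2, E-box, chr3:23945954-23945983, forward strand: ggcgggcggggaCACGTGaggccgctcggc
NR1D2, E-box, chr3:23946004-23946033, forward strand: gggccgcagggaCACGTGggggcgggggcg
NR1D2, D-box, chr3:23945916-23945945, forward strand: gtgacgcggcaTTACATAAtgggcgctgag
The E-boxes began 155 and 105 bases before the start and the D-box, on the reverse strand, 194 bases before it. The peak overlapped 103 of the 250 bases, those nearest to the start.

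NR1D1 encodes the heme-binding repressor REV-ERBα. Its single peak (chr17:40099227-40100805, hg38) reached from 216 bases before the RefSeq start to 1362 bases into the gene and stood in the authors' deposited table at 5.64 (first-listed) and 6.95 (second-listed) in log2 scaled reads. These are 50 reads (exact Poisson 95% interval 37.1 to 65.9) and 129 reads (108 to 153). The first-listed value was the low one. The log2 fold change was −1.31 (interval −1.81 to −0.83), that is, a level 2.48-fold lower in the first-listed group. If the 2 ends of each fragment were counted as separate reads, the interval over fragments would be −2.04 to −0.62. Unadjusted and adjusted p were 0.00183 and 0.649 in the authors' deposited table.

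Relative to the 8739 promoter peaks, NR1D1 was low in one group and above the middle in the other. In the first-listed group 17.7% of promoter peaks had a lower value, against 63.2% in the second-listed. By the fold change that chose it, 20 of all promoter peaks were lower.

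NR1D2 encodes REV-ERBβ, the close relative of NR1D1. Its promoter peak (chr3:23946018-23946574) stood at 7.47 and 7.39, with 177 and 174 reads, a log2 fold change of 0.08 (−0.23 to 0.39). The 2 groups were level there within counting error. Of its 557 bp, 545 also lay in the RefSeq span of NKIRAS1, so the mark cannot be given to one gene. A second peak in intron 3 of 7 (chr3:23958255-23959298) had 102 and 134 reads and a log2 fold change of −0.34 (−0.72 to 0.05). The distal intergenic peak, 23.8 kb beyond the gene's end, gave −0.32 (−0.93 to 0.28) on 43 and 56 reads. Neither of these 2 intervals left 0.

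RORA encodes the activating receptor that competes with the REV-ERBs for their element. Its RefSeq span of 741 kb touched only 3 peaks, which covered 0.520% of it, and none lay in a promoter. Those in intron 1 of 10 had log2 fold changes of 0.25 (−0.26 to 0.75, 73 and 64 reads) and 0.04 (−0.39 to 0.47, 92 and 93 reads). The other lay in an intron of the antisense gene RORA-AS1 and gave −0.03 (−0.76 to 0.70) on 33 and 35 reads. Another peak that the authors assigned to RORA lay 174 kb upstream of the gene, over the long noncoding RNA LOC105370847, at −0.35 (−0.98 to 0.27). All 4 intervals held 0, and the log2 ratio of the summed reads (238 and 245) was 0.02 (−0.25 to 0.28).

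CLOCK encodes the DNA-binding partner of BMAL1. Both of its peaks were higher in the first-listed group, by 0.42 (0.05 to 0.78) at the promoter (chr4:55543235-55545022, 145 and 113 reads) and by 0.47 (0.01 to 0.94) in the 3′ UTR (chr4:55434836-55435670, 92 and 69 reads). The promoter peak lay 910 bases downstream of the nearest RefSeq start. The 3′ UTR peak lay entirely within the span of the neighbouring gene TMEM165 as well. Over both peaks the log2 ratio was 0.44 (0.15 to 0.72), and 0.32 after scaling both columns to the same total. Unadjusted p in the authors' deposited table was 0.289 and 0.252.

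CRY1 and CRY2 encode cryptochromes, the repressors that block CLOCK and BMAL1. The CRY1 promoter peak (chr12:107091533-107093869) had 156 and 170 reads and a log2 fold change of −0.07 (−0.39 to 0.26). The peak in intron 1 of 12 (chr12:107078439-107080463), whose near end lay 13.1 kb into the gene, had 143 and 98 reads and a log2 fold change of 0.60 (0.22 to 0.99, unadjusted p 0.13 in the authors' deposited table). The intron differed from the promoter by 0.67 on the log2 scale (exact conditional interval 0.16 to 1.18), a value that does not depend on how the columns are scaled. With fragments of 2 reads as the unit the difference was 0.66 and its interval held 0 (−0.07 to 1.39). Of 11 pairs of peaks compared within 6 genes, with no adjustment for their number, this was the only one whose interval over reads left 0. Among peaks with 2 to 7 reads, even numbers made up 75.5% in the first-listed and 86.9% in the other column, and among peaks with 32 to 63 reads 51.2% and 50.9%, so intervals over reads may be too narrow.

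The CRY2 promoter peak (chr11:45847225-45849900) was the deepest of the members, with 357 and 356 reads and a log2 fold change of 0.06 (−0.15 to 0.28). Its value exceeded that of 93.9% and 94.7% of promoter peaks in the first-listed and second-listed group. The short peak in intron 1 of 11 (355 bp) gave 0.25 (−0.19 to 0.68) on 98 and 86 reads. Both CRY2 intervals held 0.

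PER1, PER2 and PER3 encode the period proteins, which carry the cryptochromes into the nucleus. The peak labelled as the PER1 promoter (chr17:8155997-8156846) was placed by a transcript outside the RefSeq span and lay 3593 bases upstream of the RefSeq gene, between PER1 and VAMP2, which was 2301 bases away on the other side. It had 105 and 97 reads and a log2 fold change of 0.17 (−0.24 to 0.58). No peak touched the RefSeq span of PER1. The PER2 peak labelled as a promoter (chr2:238263942-238264696) lay inside the gene, 23914 bases from the RefSeq start listed for PER2. It gave 0.20 (−0.33 to 0.73) on 65 and 59 reads, and the peak in exon 8 of 23 (chr2:238267992-238268433) gave 0.64 (0.01 to 1.29) on 54 and 36 reads. The exon peak was the higher of the pair in fold change and the shallower in depth, and its unadjusted p of 0.124 in the authors' deposited table was the smallest among the 16 peaks after that of NR1D1.

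Density, in scaled reads per kb of peak, ordered the peaks in a different way from their fold changes. The NR1D2 promoter was the densest in both groups (318 and 301), followed by the CRY2 intron (275 and 233) and the CRY2 promoter (133 and 128). The NR1D1 promoter stood at 31.6 and 78.3, rank 17 of 17 in the first-listed group and rank 7 in the other. The peak upstream of RORA was next to it in the first-listed group, at 31.7 from 40 reads. The RORA peaks were among the sparsest in both groups, at 31.7 to 71.0 and at 40.4 to 59.7. Without replicates, the order of close neighbours cannot be told from library noise.

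**Figure D1:**
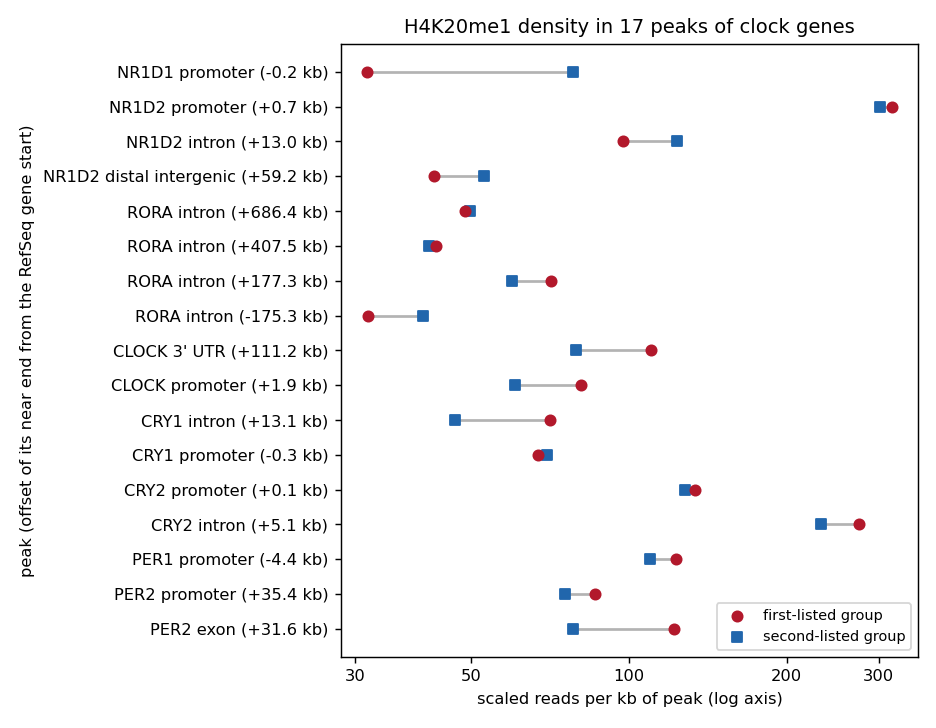
H4K20me1 density in the 17 peaks, in scaled reads per kb of peak on a log axis, with circles for the first-listed and squares for the second-listed group. The offset after each name is that of the peak's near end from the RefSeq gene start. The widest gap between the symbols is at NR1D1 (31.6 and 78.3), and the highest densities are at NR1D2 and CRY2.

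The clock gene peaks as a group had a median close to that of other peaks. The median log2 fold change of the 16 peaks was 0.125, with 11 above 0 and 5 below, against a median of 0.09 and 38.1% below 0 over the 19703 peaks that were not distal intergenic. After scaling both columns to the same total the clock median was 0.01, with 8 above and 8 below, and that of the 19703 peaks −0.02. Without NR1D1 the median was 0.17 over 15 peaks, which ranged from −0.35 to 0.64. The 6 promoter peaks other than NR1D1 ranged from −0.07 to 0.42.

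In the authors' deposited table, 1 of the 16 peaks, that of NR1D1, had an unadjusted p below 0.05, against 5.06% of all peaks (1.69% lower in the first-listed group). None of the 16 had an adjusted p below 0.05, and the same held for 0 of all 25514 peaks. NR1D1 was chosen on this contrast, so the count is a description. A difference of at least 1 log2 unit was likewise seen for 1 of 16, against 2.46% of all peaks. The read interval lay above 0 in 4 of the 16 peaks (both CLOCK peaks, the CRY1 intron and the PER2 exon), against 17.1% of all peaks, and below 0 in 1, against 8.11%. The lower bounds for CLOCK (0.05 and 0.01) and PER2 (0.01) are smaller than the 0.11 that scaling to the same total subtracts, and that of the CRY1 intron (0.22) is larger. With fragments in place of reads, the interval stayed above 0 only in the CRY1 intron (0.06 to 1.16). That lower bound of 0.06 is smaller than the 0.11 that scaling subtracts. The matching share of all peaks for fragments is not given here, so this count stands without a background.

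**Figure D2:**
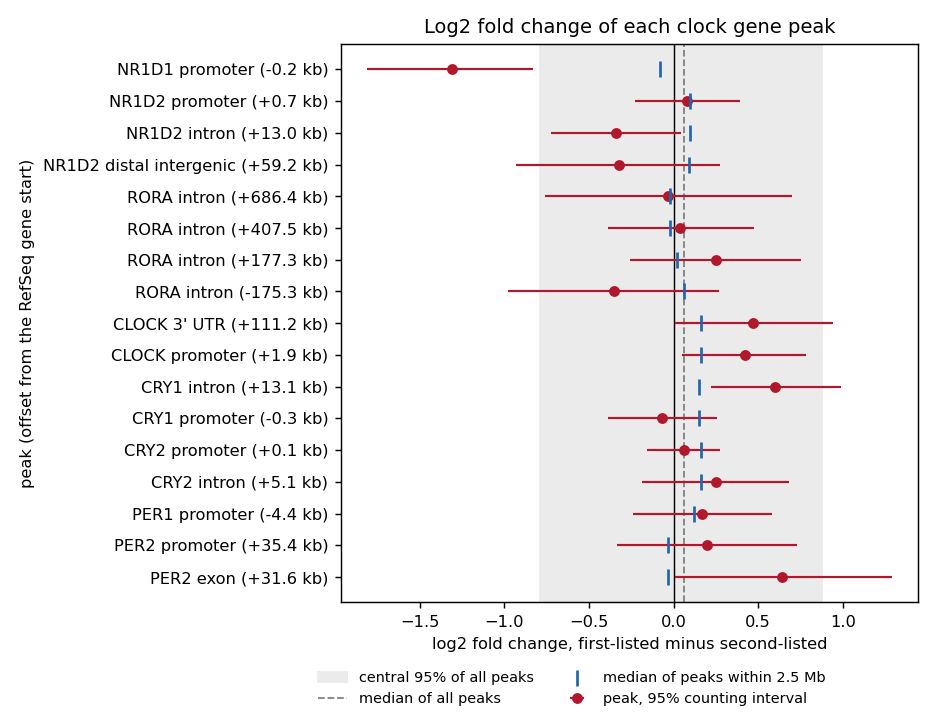
Log2 fold change of each clock gene peak (x axis, first-listed minus second-listed) with its 95% counting interval. The grey band is the central 95% of all 25514 peaks (−0.79 to 0.88), the dashed line their median, and the blue ticks the median of the peaks within 2.5 Mb. NR1D1 at −1.31 is the only point outside the band.

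The peaks around NR1D1 had a median below that of all peaks. Of the 66 other peaks within 2.5 Mb, 40 were below 0, with a median of −0.08, against 0.06 over all peaks. After scaling to the same total 50 of the 66 were below 0, as were 14106 of all 25514 peaks, since that scaling lowers every value by 0.11. NR1D1 less the regional median was −1.23. None of the 66 peaks was as low as NR1D1, the lowest being a TOP2A peak at −0.71, and 0 of them had an unadjusted p below 0.05 in the authors' deposited table.

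The nearest gene peaks on either side were those of THRA and MSL1. THRA, the thyroid hormone receptor whose span overlaps that of NR1D1 by 1075 bp at its far end, had an intron peak 23.2 kb away with 48 and 71 reads and a log2 fold change of −0.51 (−1.07 to 0.04). The MSL1 promoter, 22.4 kb to the other side, had 170 and 190 reads and −0.10 (−0.41 to 0.20).

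Farther out, the 12 nearest gene peaks within 500 kb (6 on each side) ran from −0.66 to 0.02. On the side of THRA these were 2 MED24 peaks (−0.43 and −0.03) and the promoters of PSMD3 (−0.24), ORMDL3 (−0.28) and STARD3 (−0.21). On the side of MSL1 lay CASC3 (0.02), the promoter of the replication licensing gene CDC6 (−0.59), 2 promoter peaks of the retinoic acid receptor RARA (−0.52 and −0.51) and a peak of the topoisomerase TOP2A (−0.66). Of the 12 peaks, 11 were below 0, against 40.9% of all 25514 peaks. Their intervals held 0 except at CDC6, the 2 RARA peaks and TOP2A. The smallest unadjusted p among them in the authors' deposited table was 0.118 (TOP2A). NR1D1 was chosen for its own low value, so its difference from these neighbours is a description without a test.

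**Figure D3:**
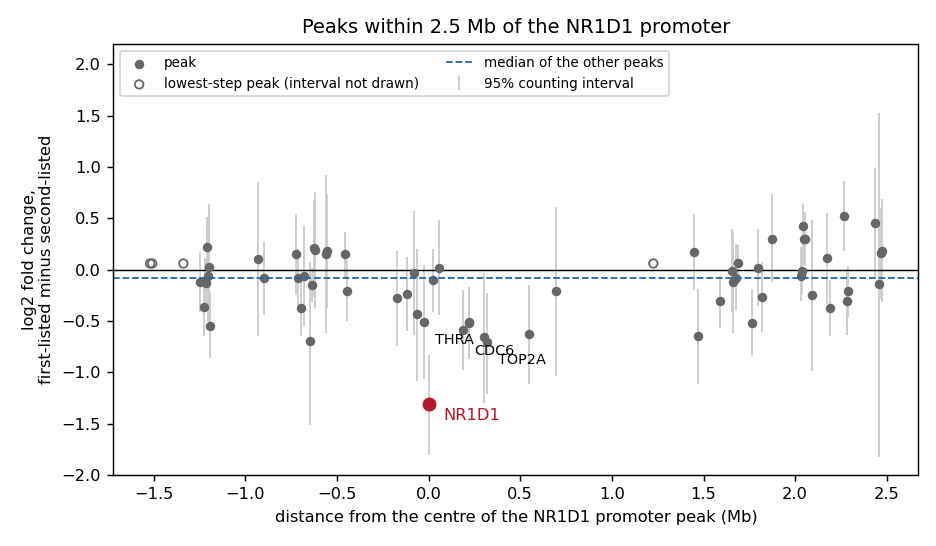
Log2 fold change (y axis) of the NR1D1 promoter peak in red and of the 66 other peaks within 2.5 Mb, against distance from its centre in Mb, with 95% counting intervals and the median of the other peaks as a dashed line. The neighbours lie between −0.71 and 0.52 and NR1D1 at −1.31. Open circles are 4 peaks at the lowest step of both columns, whose intervals are wider than the axis.

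For the other members, the medians of peaks within 2.5 Mb were closer to their own values. Regional medians were 0.10 or 0.09 around NR1D2, 0.16 around CLOCK and CRY2, 0.15 around CRY1, 0.12 around PER1 and −0.02 to 0.06 around the RORA peaks. Against these, the CLOCK peaks stood at 0.31 and 0.26, the CRY1 intron at 0.45 and its promoter at −0.22. The PER2 region had only 12 other peaks, with a median of −0.04 (−0.035 before rounding), against which the exon peak stood at 0.68 (0.675).

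A wider list of 50 further clock genes was read in the same way, each gene by the mean over its peaks without distal ones. Of these, 37 had a peak (107 peaks), 29 with a mean above 0 and 8 below, and their median was 0.12. Over all 9020 genes with a peak, 5523 were above 0 and the median was 0.08. After scaling to the same total the list had 19 above and 18 below and a median of 0.01, and all genes one of −0.03. Of the 107 peaks, 0 had an adjusted p below 0.05 in the authors' deposited table. An unadjusted p below 0.05 was listed for 8, all higher in the first-listed group, against 3.37% of all peaks in that direction. These 8 belonged to 5 genes, among them ARNTL, FBXW11, GSK3B and CREBBP.

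ARNTL, the file's symbol for BMAL1, was the only one of the 3 further activators with a peak, and NPAS2 and ARNTL2 had none. Its 6 peaks ran from −0.01 to 1.07, and the highest (chr11:13338709-13339727, in an intron) had 172 and 86 reads and an interval of 0.68 to 1.45 (unadjusted p 0.00746 in the authors' deposited table). Summed over its peaks (744 and 579 reads) the log2 ratio was 0.42 (0.26 to 0.58). The median of peaks within 2.5 Mb of the ARNTL peaks was 0.19. NR1D1 and NR1D2 repress this gene and RORA activates it, but any link between their values and those of ARNTL was not tested. RORB, a relative of RORA, had 1 shallow intron peak at 0.47 (−0.29 to 1.25).

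The factors that bind the D-box, the output element of the clock, had fold changes of both signs. None of their peaks had an unadjusted p below 0.05 in the authors' deposited table. The promoter of DBP, an activator, had 119 and 184 reads and a log2 fold change of −0.58 (−0.92 to −0.23), the lowest gene mean of the list. TEF, its relative, gave −0.32 (−0.77 to 0.12) at the promoter, −0.82 (−1.50 to −0.17) in exon 2 of 4 and 0.17 (−0.24 to 0.59) in the 3′ UTR. Summed over the TEF peaks the log2 ratio was −0.20 (−0.47 to 0.07). NFIL3, the repressor of the same element, gave 0.41 (−0.12 to 0.95) at its promoter. HLF had no peak. Of the E-box repressors, BHLHE40 (DEC1) gave 0.24 (−0.14 to 0.61), and BHLHE41 and CIART had no peak.

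Among enzymes that set the stability of PER and CRY, 7 of 8 kinases and phosphatases and 5 of 7 ubiquitin pathway genes had a mean above 0, against 5523 of all 9020 genes. After scaling to the same total these were 4 of 8, 4 of 7 and 4177 of 9020. The casein kinases that phosphorylate PER gave log2 ratios of summed reads of −0.02 (−0.11 to 0.08) for CSNK1D, over 4 peaks, and 0.35 (0.16 to 0.55) for CSNK1E, over 2. The F-box protein BTRC, which targets PER, gave −0.16 (−0.90 to 0.57). FBXW11, the second F-box protein for PER, was the highest gene of the list. Its 3 peaks gave 1.24 (0.66 to 1.85) and 0.99 (0.63 to 1.36) within the gene and 0.47 (0.20 to 0.73) at the promoter, and their sum 0.73 (0.53 to 0.93). SKP1, the adaptor of these ligases, gave 0.48 (0.30 to 0.67). GSK3B, a kinase of several clock proteins, gave 0.41 (0.28 to 0.55) over 6 peaks, and PPP1CA, a phosphatase catalytic subunit, −0.57 (−0.89 to −0.25) at its promoter. FBXW11, SKP1 and PPP1CA were named for gene means among the 4 highest or 4 lowest of the list. In the authors' deposited table, unadjusted p was 0.984 and 0.178 for CSNK1E, 0.189 and 0.136 for SKP1 and 0.135 for PPP1CA. It was 0.00374, 0.0116 and 0.195 for FBXW11, where the regional median was 0.22, and 0.0161 at the lowest for GSK3B. The share of all genes whose summed interval leaves 0 is not given here.

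Among cofactors, NCOR1, the corepressor that REV-ERBα recruits, gave a log2 ratio of 0.16 (−0.06 to 0.38) over 3 peaks. The acetyltransferases EP300 and CREBBP gave −0.43 (−0.73 to −0.14) and 0.32 (0.17 to 0.48). They were named as among the 4 lowest and the 4 highest gene means of the list, so their distance follows from that choice. Unadjusted p in the authors' deposited table was 0.0925 and 0.393 for the EP300 peaks and 0.0197 to 0.709 for the CREBBP peaks. HDAC3, the deacetylase partner of NCOR1, had no peak. The 2 EP300 peaks were both promoter peaks and the 5 CREBBP peaks all lay in introns.

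**Figure D4:**
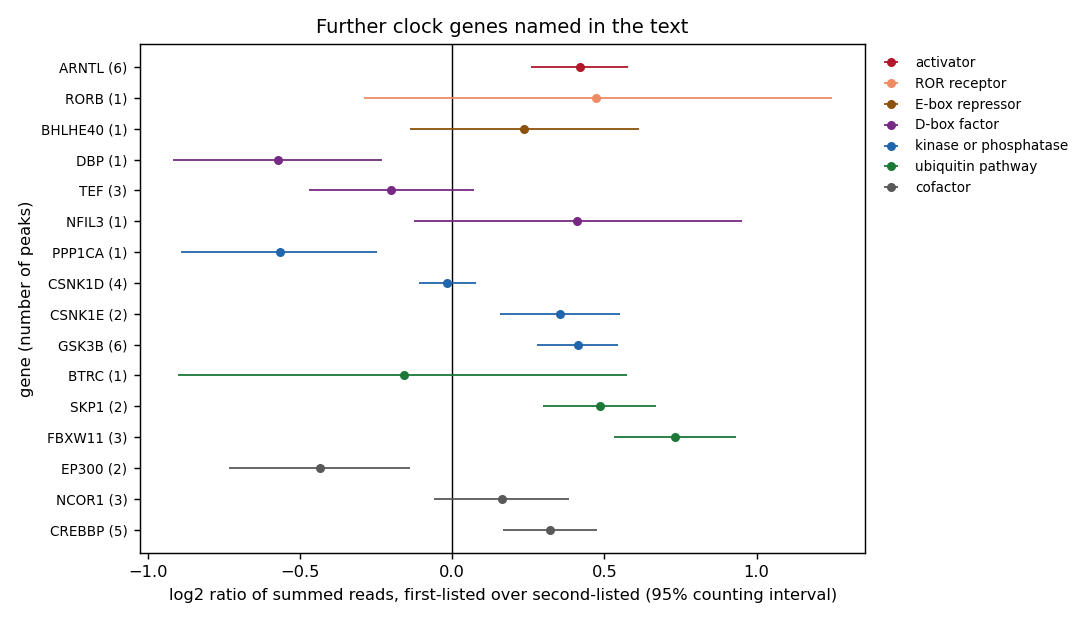
Log2 ratio of summed reads (x axis, first-listed over second-listed) with 95% counting intervals for the 16 further clock genes named in the text, coloured by role, with the number of peaks after each name. FBXW11 is highest at 0.73 and DBP lowest at −0.57.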

How the data were processed

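H4K20me1 CUT&Tag was run on 4 libraries of Kasumi-1 cells. Tools named per the submitters' processing notes were Bowtie2, cutadapt and DESeq, with build hg38. Their versions, the peak caller and any pooling of libraries were not given in the sources used here. The deposited table gives log2 scaled reads per peak for each group, a log2 fold change, and an unadjusted and an adjusted p-value, all made by the authors. Column meanings were settled from the values. All 5676 first-listed and 5851 second-listed values from 1.5 to 5.5 equalled log2 of a whole number plus a constant of 0 or −0.057, within 0.0051, which gave reads, to within rounding above 144. Reads in peaks totalled 2791207 and 2682916. With 1 column per group no test was made.

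Members and lists were chosen with earlier results of these data known. Named genes are the 9 members, 14 core genes where they had a peak, the 4 lowest and 4 highest of the 50 others by mean fold change, 12 neighbours and the 5 promoters nearest to NR1D1. NCOR1, GSK3B and genes without a peak were named after their values were seen, and some genes of the lists are counted but not reported here. All 50 symbols matched RefSeq. Python 3.11.15, pandas 2.3.3 and scipy 1.17.1 were used, and read recovery and intervals were tested on simulated data. The simulated reads were independent Poisson draws, without fragment pairs or differences between libraries. The simulation therefore could not check whether the intervals are too narrow for those reasons. Alternatives covered scaling, distal peaks, promoters, signal, region, assignment and fragments in place of reads.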

Additional observations from a re-analysis of the deposited data

How the results depend on the processing

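No paired analysis was possible because the table holds 1 column per group, and for the same reason no library could be left out. The median over the other clock genes, 0.12, was 0.0059 after scaling both columns to the same total of reads in peaks, which by its construction subtracts 0.11 from every fold change. It was 0.10 from promoter peaks and 0.17 from peaks with at least the median signal. The clock gene median of 0.125 ran from 0.0109 (same total) to 0.185 (peaks by host gene) over its 10 alternatives, of which the 2 on RefSeq spans (both 0.14) were added after seeing the data. The number of peaks, 1, at an unadjusted p under 0.05 was also 1 at 0.01 and with the distal peak. That peak was NR1D1, chosen on this contrast, so the unchanged count is no check. The share of all peaks at 0.01 is not given here. Of 51 single-peak values under alternatives, 51 lay within the peak's interval and 6 changed sign, and of 24 gene sums 24 and 3 did. Scaling alternatives subtract 0.11 or 0.057 from every value, less than any of these intervals reaches below its value. Values under them could therefore not leave the interval, and the counts are no check of it. The sign changes were those of the NR1D2 and CRY2 promoters, a RORA intron and the RORA and CRY2 sums. With fragments in place of reads, added after seeing the data, the difference between the CRY1 intron and promoter was 0.66 against 0.67, and its interval then held 0. A uniform loss of the mark cannot show, since no spiked-in DNA or library without antibody was used here.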

Other observations

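Promoter peaks closest to NR1D1 in the 2 deposited values, by Euclidean distance in log2 units over these 2 columns, were those of GAS2 (distance 0.16), PIGF (0.23), C4orf46 (0.27), MEIS2 (0.27) and NAGK (0.29). Their log2 fold changes were −1.17, −1.11, −0.93, −1.02 and −0.98, and they lie on chromosomes 11, 2, 4, 15 and 2. MEIS2, a homeodomain partner of HOX proteins, had 60 and 127 reads (interval −1.49 to −0.57), and GAS2, which binds the actin cytoskeleton, 49 and 115 (−1.69 to −0.68). Likeness in 2 values reflects level and fold change alone.

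In addition, 2 peaks inside clock genes carried another symbol. One inside the NR1D2 span (chr3:23949564-23950470), assigned to NKIRAS1, had 229 and 226 reads and a log2 fold change of 0.08 (−0.20 to 0.35). The other, at the 3′ end of CRY2 (chr11:45880585-45882297) and assigned to MAPK8IP1, had 187 and 162 reads and 0.26 (−0.05 to 0.58). With them, the reads over the CRY2 span gave a log2 ratio of 0.15 (−0.02 to 0.31) and those over the NR1D2 span −0.02 (−0.19 to 0.16).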
